A study of Oryctolagus cuniculus with 24 samples.

Results

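RNA of intestinal epithelial cells (IEC) and of lamina propria mononuclear cells (LPMC) from the caeca of New Zealand White rabbits was measured by RNAseq, and 53 of the 17318 genes in the tables are described here, chosen because, without DSS, they were higher in rabbits given whipworm ova than in vehicle rabbits in both cell types. Per the study's methods, TSO rabbits had received 3 oral doses of 2500 Trichuris suis ova, on days 1, 14 and 21, and Veh rabbits the vehicle. For 5 days, starting on day 26, DSS rabbits drank fennel tea with 0.1% dextran sulphate sodium and Water rabbits drank fennel tea without it, and caeca were removed on day 35. The design crossed ova with DSS (Veh Water and TSO Water without, Veh DSS and TSO DSS with DSS), with 3 rabbits per group, and each of the 12 rabbits gave 1 IEC and 1 LPMC library, so that the 24 libraries come from 12 separate animals. IEC had been detached with EDTA, and LPMC had been released with collagenase and purified on Ficoll. All DSS rabbits stood in room A, as did the Water rabbits other than Veh Water rabbit 1 and TSO Water rabbit 2, which stood in room B.

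Trichuris suis is the whipworm of the pig, whose ova hatch in the caecum and whose larvae enter the epithelium there. Worms in the intestine are known for a type 2 response, in which epithelial tuft cells send signals to lymphoid cells of the lamina propria, the cytokines of these cells act back on the epithelium to raise goblet cells and mucus, and eosinophils, mast cells and alternatively activated macrophages gather. DSS is a sulphated polysaccharide that damages the epithelium and lets luminal bacteria reach the lamina propria, where neutrophils and monocytes are recruited. Both compartments therefore take part in the response to ova and in that to DSS. The tables give Ensembl identifiers without symbols, and a table of rabbit gene names matched 0 of the 17318 identifiers, so that genes are given by identifier and chromosome, and their products, sequences and cell type markers are not analysed here.

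The genes were chosen by measured values of the TSO Water and Veh Water libraries. Levels are CPM, the reads of a gene relative to the total reads of its library, and differences on the rule's scale are differences of mean log2(CPM + 1). A gene outside the mitochondrial genome had to exceed a difference of 1 between TSO Water and Veh Water in both cell types, and its lowest TSO Water library had to lie above its highest Veh Water library in LPMC. A difference above 1 was found for 107 genes in IEC, for 283 in LPMC and for 78 in both, and 56 of the latter did not overlap in LPMC. The rule sets 5 identifiers aside by name, 3 of which had passed, and this leaves 53. In the opposite direction, 18 genes were below -1 in both cell types, a count made without the condition on overlap, so that its like is the 78 and not the 53. As these values chose the genes, they are a description and carry no test. Differences of the 53 genes were 1.01 to 6.22 in IEC, with a median of 1.49 beside -0.22 over all genes, and 1.02 to 4.76 in LPMC, with a median of 1.87 beside 0.02 over all genes. In IEC, where the rule did not ask for it, 20 of the 53 did not overlap either, and 0.843% of all genes with a mean of at least 1 CPM were higher without overlap there. In LPMC, where the rule asked for it, that share was 8.12%.

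At the threshold, ENSOCUG00000022066 (1.01 in IEC and 1.58 in LPMC) and ENSOCUG00000010040 (1.01 and 1.22) were the last genes inside. ENSOCUG00000007816 (0.98 and 1.75) and ENSOCUG00000002112 (1.08 and 0.98) were the first outside. The set depended on the scale and on single rabbits: 84 genes passed with 0.1 in place of 1 added to the CPM, 53 of them shared, and 86 passed with room A rabbits only, 50 of them shared. Without TSO Water rabbit 1 there were 34 genes, 32 of them shared, and without TSO Water rabbit 2 there were 80, 51 of them shared.

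The genes lay on 16 of the 22 chromosomes of the tables. Chromosome 13 held 9 of the 53, or 17.0%, and 9.18% of all genes outside the mitochondrial genome. Chromosomes 4 and 9 held 6 each (11.3%, beside 5.29% and 4.93% of all genes), and chromosome 12 held 5 (9.43%, beside 6.80%). Chromosomes 5 and 19 held 4 each (7.55%, beside 2.23% and 5.43%).

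Recovered reads numbered 13148436 to 27480148 in IEC libraries and 3685522 to 15770386 in LPMC libraries, the smallest being that of TSO DSS rabbit 3, where 5 of the 53 genes had 3 reads or fewer. Over all LPMC libraries, 0 to 10 of the genes had 3 reads or fewer, the most being in Veh Water rabbit 3. The share of a library's reads from the mitochondrial genome was 20.1% to 21.0% in IEC of Veh Water and 17.4% to 41.7% in IEC of TSO Water, and 13.5% to 24.98% in LPMC of Veh Water and 13.7% to 17.8% in LPMC of TSO Water. With CPM over the other reads only, 67 genes passed the rule, 52 of them shared. With no marker symbols, each cell preparation was checked by genes at least 16-fold higher in the other preparation, listed in rabbits other than those read and chosen after the data had been seen. In LPMC of Water rabbits, the 39 genes rich in IEC summed to 4.91 to 16.2 CPM in Veh Water and to 6.89 to 8.41 CPM in TSO Water, with 36 or 37 of them at 0 in each library. With nearly all of the 39 at 0, these sums rest on very few genes. They cannot show how many IEC were among the LPMC. In IEC of Water rabbits, the 15 genes rich in LPMC summed to 1411 to 2896 CPM in Veh Water, with 1 to 4 of them at 0, and to 1669 to 9601 CPM in TSO Water, with 2 to 5 at 0. In bulk RNA, fewer cells of a type and less RNA per cell cannot be told apart.

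Seen library by library, the set was high in every TSO Water library, and in IEC it was high in 2 of the 3 Veh DSS rabbits as well. For each library, the median over the 53 genes of log2(CPM + 1) above the Veh Water mean was taken. In IEC it was -0.38, 0.96 and -0.55 in Veh Water rabbits 1 to 3, and 2.39, 1.12 and 1.04 in TSO Water. Veh Water rabbit 2 stood close to TSO Water rabbits 2 and 3, and had the highest Veh Water level for 45 of the 53 genes, while TSO Water rabbit 1 had the highest TSO Water level for 46. That rabbit was the lowest of the TSO Water group for the summed level of the genes rich in LPMC, at 1669 CPM, against 3008 and 9601 CPM in rabbits 2 and 3. Rabbit 3, with the highest sum, also had the most of these genes at 0, namely 5. Whether the sum and the level of the set go together was not tested.

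IEC medians were -0.07, 3.09 and 1.84 in Veh DSS rabbits 1 to 3, and 2.60, 2.32 and 2.22 in TSO DSS. The Veh DSS rabbits spread more widely than those of the other IEC groups: rabbit 1 was the lowest of the 3 for 47 genes and rabbit 2 the highest for 40. In the same order, the 119 genes rich in LPMC by the Water rabbits summed to 2363, 19059 and 4377 CPM in IEC of Veh DSS, and to 12525, 8323 and 2691 CPM in IEC of TSO DSS, with 2 to 7 of them at 0 in each library. Veh DSS rabbit 2 was thus the highest for both the set and the genes rich in LPMC, whose part in the result was not tested. TSO DSS rabbit 3 had a sum near that of Veh DSS rabbit 1, with a median of the set of 2.22 against -0.07. These are values of single libraries picked after they had been seen, and no relation between sum and set was tested.

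**Figure D1:**
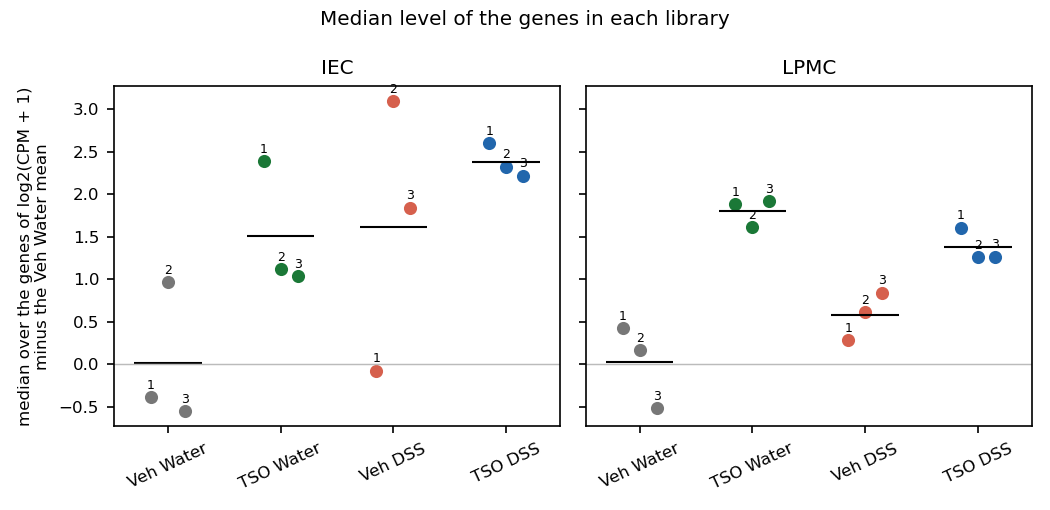
Median over the 53 genes of log2(CPM + 1) minus the Veh Water mean, for each IEC library (left) and LPMC library (right), by group on the x axis. Points are rabbits with their number and lines are means of 3 rabbits. In LPMC the 3 TSO DSS rabbits (1.26 to 1.61) sit above the 3 Veh DSS rabbits (0.28 to 0.85), while in IEC the Veh DSS rabbits spread from -0.07 to 3.09.

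In LPMC, the median was 0.42, 0.17 and -0.51 in Veh Water, 1.89, 1.61 and 1.92 in TSO Water, 0.28, 0.61 and 0.85 in Veh DSS, and 1.61, 1.26 and 1.27 in TSO DSS. The groups given ova lay above the groups given vehicle without overlap, which for the Water rabbits is in part fixed by the rule, while Veh Water and Veh DSS overlapped. The 58 genes rich in IEC by the Water rabbits summed to 205 to 357 CPM in LPMC of Veh DSS and to 107 to 539.7 CPM in TSO DSS, with 35 to 37 of them at 0 in each library. As most of the 58 were at 0, these sums rest on the remaining genes and do not measure the share of IEC.

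Set beside Veh Water, whose libraries chose the genes, both DSS groups are given as values without a test. In IEC, the median difference was 1.66 for Veh DSS and 2.41 for TSO DSS, and 34 genes in Veh DSS and 49 in TSO DSS exceeded 1. Over all genes with a mean of at least 1 CPM, 5.75% exceeded 1 in Veh DSS, 6.1% in TSO DSS and 1.09% in TSO Water. In LPMC, the median difference was 0.61 for Veh DSS and 1.26 for TSO DSS, and 20 and 34 genes exceeded 1, beside 2.77% of all genes in Veh DSS, 3.9% in TSO DSS and 2.77% in TSO Water. In Veh DSS, 17 of the 53 genes exceeded 1 in both cell types, beside 1.77% of all genes, and 6 were at or below 0 in both, beside 29.1%.

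**Figure D2:**
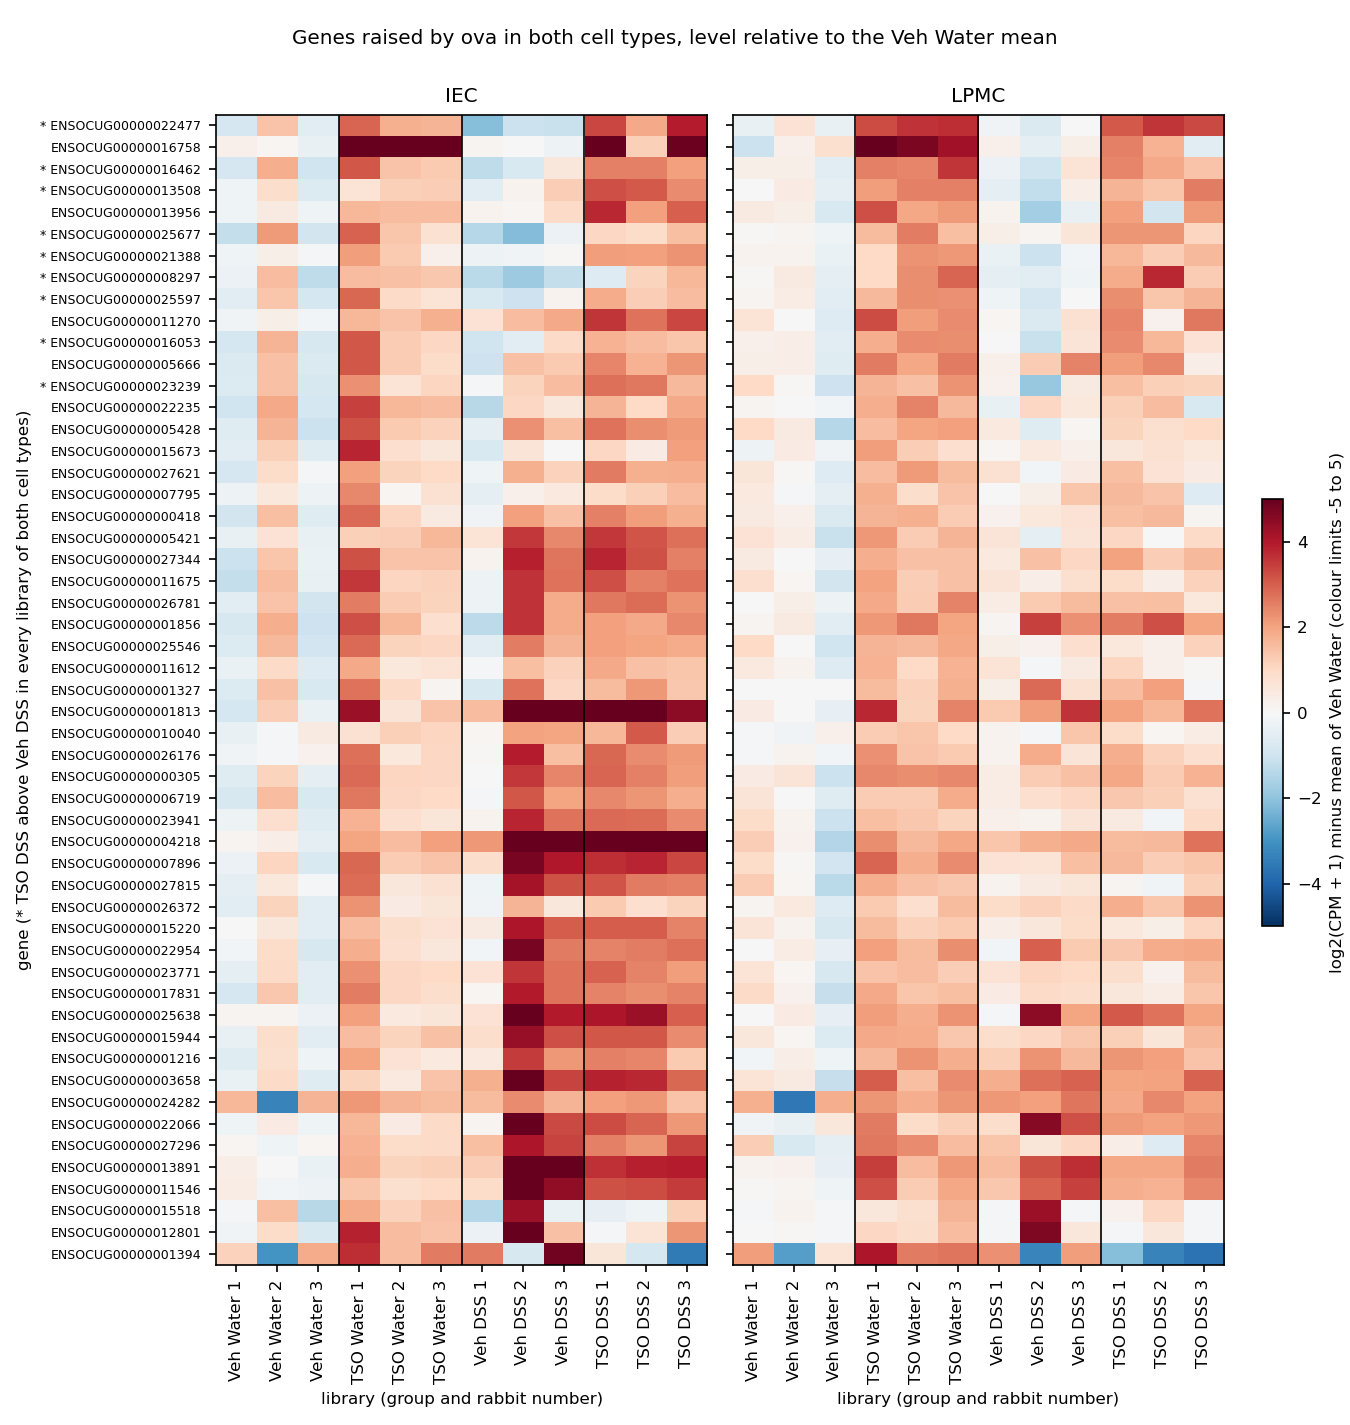
Level of each of the 53 genes (rows) in each library (columns), as log2(CPM + 1) minus the mean of the 3 Veh Water libraries of the same cell type, with colours from -5 (blue) to 5 (red). Rows are ordered by the IEC difference of TSO DSS from Veh DSS, and a star marks the 9 genes that were higher in TSO DSS without overlap in both cell types. The starred rows are pale or blue in Veh DSS, whereas most other rows are red in IEC of Veh DSS rabbits 2 and 3.

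The comparison of TSO DSS with Veh DSS asks whether ova went with higher levels of the same genes in rabbits that all had received DSS. It uses none of the libraries that chose the genes, except in an alternative fit of all 12 libraries of a cell type. Differences are log2 fold changes by limma on log2(TMM-scaled CPM + 1), where TMM scales libraries to each other on their shared genes, and a call needed a Benjamini-Hochberg adjusted p under 0.05 over all tested genes and a log2 fold change beyond 1. All of the 53 genes passed the filter on low values in IEC, and 52 did in LPMC. ENSOCUG00000015673, on chromosome 1, did not pass in LPMC, where it was at 0.539, 1.01 and 0.693 CPM in Veh DSS and at 1.09, 1.45 and 1.09 CPM in TSO DSS.

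No gene of the set, and no gene at all, was called by limma in LPMC (0.0% of 9979 genes in either direction), where the lowest adjusted p of the set was 0.0889, or in IEC (0.0% of 9818 genes), where it was 0.386. These counts over all genes depended on a single rabbit in LPMC: without TSO DSS rabbit 2, limma called 95 genes higher, 7 of them of the set, and 711 lower, 0 of them of the set. With all 12 LPMC libraries in the fit it called 4 higher, 2 of them of the set, and 15 lower. That fit takes its spread also from the Water libraries that chose the genes, so that its calls within the set are not independent of the rule. The quasi-likelihood test of edgeR on the recovered reads called 0 genes in either cell type. DESeq2 called 7 of the set higher and 1 lower in LPMC, among 38 genes higher and 198 lower in all, and 10 higher and 0 lower in IEC, among 26 higher and 2 lower in all. By limma without adjustment of the p-value, 9 of the set were higher in LPMC and 15 in IEC, and 0 were lower in either, while 0.732% of all tested genes were higher in LPMC and 0.601% in IEC. Lower genes were 4.63% of all tested genes in LPMC and 0.194% in IEC. The 0 lower genes of the set rested on single rabbits. Without Veh DSS rabbit 1, 3 were lower at the unadjusted p in LPMC (3.41% of all tested genes) and 2 in IEC (0.693%).

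Without any test, 11 of the 52 genes in LPMC had their lowest TSO DSS library above their highest Veh DSS library, as had 7.97% of all tested genes, and 0 had the reverse (7.4% of all). In IEC, 14 of the 53 were higher without overlap (2.17% of all) and 0 lower (2.42% of all). Without Veh DSS rabbit 1, 3 genes of the set were lower without overlap in LPMC, beside 1023 of all 9913 tested genes. In IEC there were then 5, beside 771 of 9809. In both cell types at once, 9 of the 52 genes tested in both were higher without overlap, beside 0.439% of the 9567 genes, and the same 9 genes were those higher at the unadjusted p in both, beside 0.303% of all. The mean in Veh DSS was below 1 CPM in IEC or LPMC for 4 of the 9, so that these passed the filter through TSO DSS, the group where they were high. They were ENSOCUG00000008297, ENSOCUG00000021388, ENSOCUG00000022477 and ENSOCUG00000025597. The genes with the lowest p of the set in LPMC and in IEC, described below, are thus among them. Without the filter, the count was 9 of the 53 genes, beside 0.4% of the 12487 genes then tested. With each rabbit left out in turn, 7 to 11 genes of the set were higher at the unadjusted p in both cell types, beside 0.125% to 0.323% of all tested genes, and 7 of the 9 were among them without TSO DSS rabbit 1 or without Veh DSS rabbit 2, and 8 without TSO DSS rabbit 3.

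Over all tested genes of the set, and not the 9 picked for their gap, 38 of the 52 differences in LPMC were above 0 (51.2% of all genes), with a median of 0.28 beside 0.01 over all genes, and the 95% interval spanned 0 for 41. The LPMC median was 0.00086 without Veh DSS rabbit 1, with 27 of 53 genes above 0 (51.0% of all genes), so that it too depended on a single rabbit. In IEC, 46 of the 53 were above 0 (46.3% of all genes), with a median of 0.80 beside -0.02, and the interval spanned 0 for 38. The IEC median was -0.01 without Veh DSS rabbit 1, with 26 genes above 0, and 1.56 without Veh DSS rabbit 2, and with edgeR it was 0.21, with 31 genes above 0, so that it depended on single rabbits and on the tool. Mitochondrial genes took 12.4% to 29.9% of the reads in IEC of Veh DSS and 20.9% to 46.5% in TSO DSS, and 16.6% to 22.9% in LPMC of Veh DSS and 9.06% to 18.8% in TSO DSS. With CPM taken over the other reads only, 18 genes in IEC and 9 in LPMC were higher at the unadjusted p, beside 0.935% of all tested genes in IEC and 0.622% in LPMC.

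**Figure D3:**
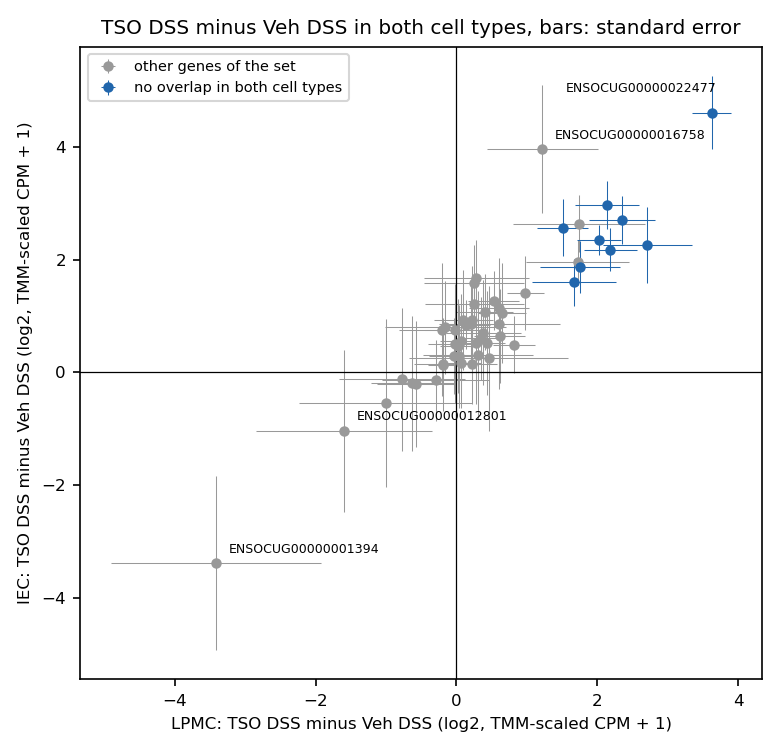
TSO DSS minus Veh DSS in LPMC (x axis) and in IEC (y axis) for the 52 genes tested in both, as log2 fold changes of TMM-scaled CPM with standard errors as bars. Blue points are the 9 genes without overlap in both cell types, which reach from 1.51 to 3.62 in LPMC and from 1.60 to 4.61 in IEC, and most of the grey points lie near 0 in LPMC.

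Among these 9 genes, ENSOCUG00000022477 on chromosome 19 had the lowest p in LPMC. Its LPMC levels were 0.539, 0.0634 and 0.762 CPM in Veh DSS and 13.6, 19.8 and 16.3 CPM in TSO DSS. In the Water rabbits they were 0.356, 1.87 and 0.358 CPM with vehicle and 15.5, 20.6 and 21.7 CPM with ova. All 6 rabbits given ova thus had more than 10 CPM and all 6 others less than 2 CPM, with and without DSS. For the Water rabbits the lack of overlap in LPMC was fixed by the rule, so that only the DSS rabbits add to it. TSO DSS exceeded Veh DSS by 3.62 on the log2 scale (SE 0.28, n = 3 against 3, limma adjusted p = 0.0889), and by 5.21 with edgeR and 5.24 with DESeq2. In IEC the gene was at 0.897, 2.97 and 2.80 CPM in Veh DSS and at 83.3, 30.2 and 124 CPM in TSO DSS, a difference of 4.61 (SE 0.65, limma adjusted p = 0.665). In IEC of the Water rabbits, levels were 3.60, 21.2 and 4.56 CPM with vehicle and 61.0, 27.6 and 26.0 CPM with ova. Here too every rabbit given ova was above every rabbit without, and Veh Water rabbit 2 was the nearest to them. Between the Water groups in IEC, the rule had asked for a difference above 1, though not for a lack of overlap.

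ENSOCUG00000021388, also on chromosome 19, had the lowest p in IEC. IEC levels were 0.598, 0.667 and 0.979 CPM in Veh DSS and 7.05, 6.94 and 7.96 CPM in TSO DSS, with a difference of 2.35 (SE 0.26, limma adjusted p = 0.386). In LPMC they were 2.05, 0.824 and 2.56 CPM in Veh DSS and 11.2, 8.03 and 10.9 CPM in TSO DSS, with a difference of 2.03 (SE 0.31, limma adjusted p = 0.345). The TSO DSS rabbits lay within 1.5 times of each other in both cell types. In the Water rabbits, whose values are part of the rule, levels with ova were 7.00, 3.75 and 1.27 CPM in IEC and 6.83, 17.3 and 16.4 CPM in LPMC. TSO Water rabbit 3 therefore fell among the Veh Water rabbits (0.655, 1.35 and 0.761 CPM) in IEC but not in LPMC.

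ENSOCUG00000016462, on chromosome 2, was at 2.73, 4.26 and 12.4 CPM in IEC of Veh DSS and at 50.3, 50.7 and 35.9 CPM in TSO DSS, with a difference of 2.97 (SE 0.42, limma adjusted p = 0.665). In LPMC it was at 17.8, 10.7 and 36.2 CPM in Veh DSS and at 126, 86.0 and 60.8 CPM in TSO DSS, with a difference of 2.13 (SE 0.45, limma adjusted p = 0.352). Veh DSS rabbit 3 was the highest of its group in both cell types and still below each TSO DSS rabbit.

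ENSOCUG00000025597, on the X chromosome, was at 0.539, 0 and 0.762 CPM in LPMC of Veh DSS and at 7.97, 3.69 and 4.88 CPM in TSO DSS, with a difference of 2.19 (SE 0.37, limma adjusted p = 0.345) and of 3.71 with edgeR. In IEC it was at 0.598, 0.308 and 2.03 CPM in Veh DSS and at 8.60, 5.33 and 6.82 CPM in TSO DSS, with a difference of 2.18 (SE 0.38, limma adjusted p = 1.00). The LPMC libraries of Veh DSS held 5, 0 and 11 reads of it, and those of TSO DSS 66, 51 and 18.

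ENSOCUG00000013508, on chromosome 9, was at 5.07, 2.54 and 9.28 CPM in LPMC of Veh DSS and at 25.8, 20.7 and 48.0 CPM in TSO DSS, with a difference of 2.35 (SE 0.47, limma adjusted p = 0.345). Its IEC levels were 0.523, 1.54 and 4.19 CPM in Veh DSS and 20.0, 17.5 and 10.5 CPM in TSO DSS, with a difference of 2.71 (SE 0.43, limma adjusted p = 0.980). In IEC the TSO DSS levels were also above those of the TSO Water rabbits, at 2.60, 4.17 and 4.27 CPM. The other genes without overlap in both cell types, which the naming rule had not chosen and which are given after their values were seen, were ENSOCUG00000008297 on chromosome 1, ENSOCUG00000016053 on chromosome 12, ENSOCUG00000023239 on chromosome 13 and ENSOCUG00000025677 on chromosome 9. Their differences were 1.51 to 2.71 in LPMC and 1.60 to 2.56 in IEC.

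**Figure D4:**
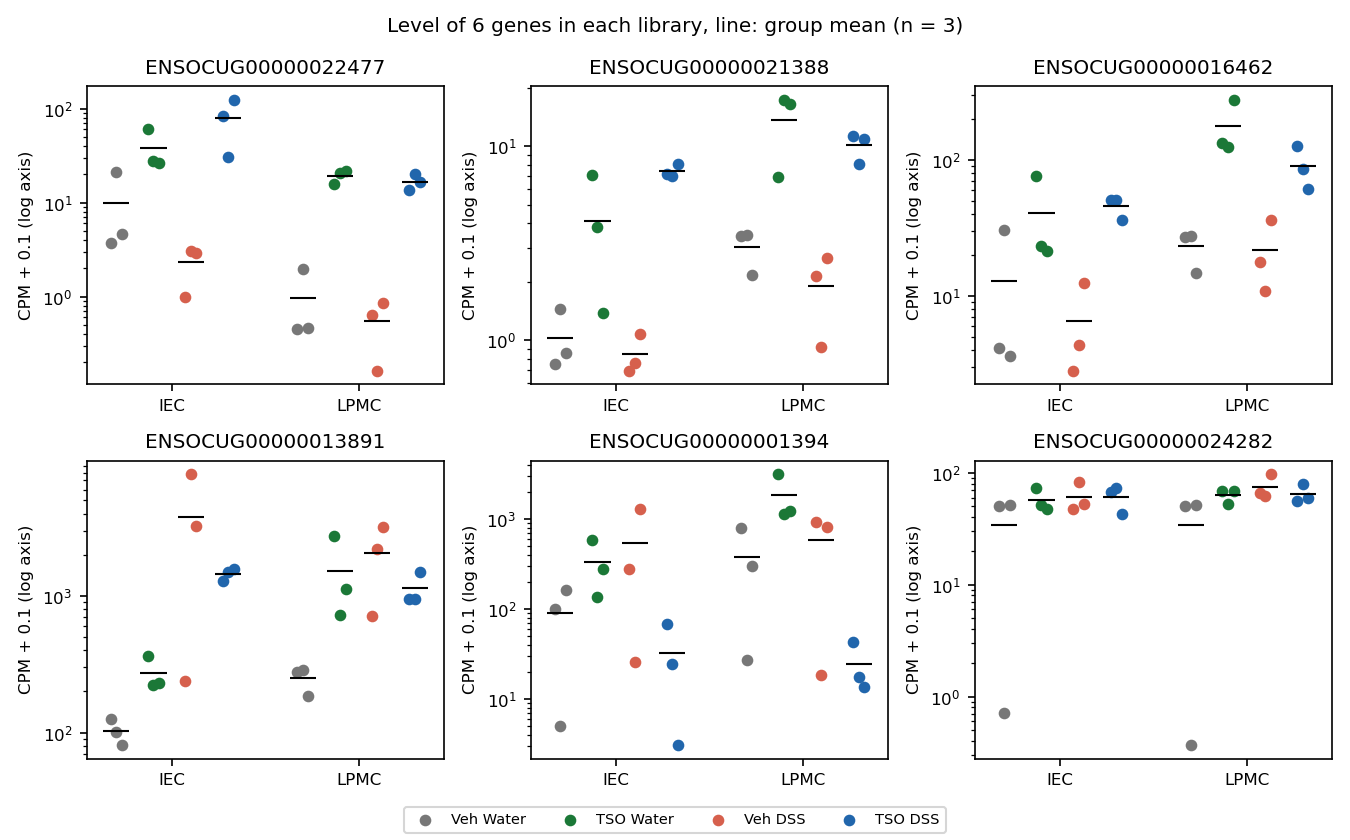
CPM + 0.1 on a log axis for 6 genes in each library, IEC on the left and LPMC on the right of each panel, with the Water groups before the DSS groups and vehicle before ova. Points are rabbits and lines are means of 3. ENSOCUG00000022477 shows the rabbits with ova above all others in both cell types, ENSOCUG00000001394 shows low TSO DSS levels, and ENSOCUG00000024282 shows a single low rabbit. The lack of overlap between the Water groups in LPMC was asked for by the rule.

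These 9 genes and the other 44 stood differently in Veh DSS. Relative to Veh Water, the median difference of the 9 genes in Veh DSS was -0.48 in IEC (-1.45 to 0.87) and -0.38 in LPMC (-0.52 to 0.33). For the other 44 it was 2.01 in IEC (-0.05 to 4.91) and 0.95 in LPMC (-0.63 to 2.88). The same Veh DSS libraries served to separate the 9 from the 44, so that low Veh DSS levels are in part what defines them and no test was made.

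Among the other 44 was ENSOCUG00000013891, on chromosome 4, which had the highest CPM of the set in both cell types, on a scale that is not corrected for gene length. In IEC it was at 126, 101 and 80.6 CPM in Veh Water and at 363, 221 and 230.4 CPM in TSO Water. In the DSS rabbits IEC levels were 238, 7774 and 3249 CPM with vehicle and 1295, 1508 and 1568 CPM with ova. The TSO DSS rabbits lay close together, the Veh DSS rabbits ranged from the level of the TSO Water rabbits to far above TSO DSS, and the difference of TSO DSS from Veh DSS was -0.20 (SE 1.20, limma adjusted p = 1.00). Its sign turned without Veh DSS rabbit 2 (0.87) or rabbit 3 (0.17), and it was -1.20 with edgeR and -1.18 with DESeq2. In LPMC the gene was at 278, 286 and 187 CPM in Veh Water, 2724, 723 and 1116 CPM in TSO Water, 712, 2219 and 3208 CPM in Veh DSS, and 949, 953 and 1505 CPM in TSO DSS. Veh DSS rabbit 1 was the lowest DSS rabbit in both cell types.

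ENSOCUG00000001813, on chromosome 12, was also highest in IEC of Veh DSS rabbit 2. It was at 1.38, 9.23 and 2.43 CPM in Veh Water, 87.1, 5.83 and 10.8 CPM in TSO Water, 11.9, 372 and 198 CPM in Veh DSS, and 225, 163 and 94.8 CPM in TSO DSS. Its TSO Water group overlapped with Veh Water in IEC, and TSO Water rabbit 1 alone was far above. In LPMC it was at 34.9, 25.2 and 19.3 CPM in Veh Water, 359.7, 57.2 and 146 CPM in TSO Water, 64.9, 113 and 326 CPM in Veh DSS, and 105, 82.4 and 177 CPM in TSO DSS. The DSS groups overlapped in both cell types.

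ENSOCUG00000027296, on chromosome 12, was at 209, 1220.0 and 766 CPM in IEC of Veh DSS and at 427, 344 and 763 CPM in TSO DSS. ENSOCUG00000027344, on chromosome 4, was at 52.0, 695 and 305 CPM in Veh DSS and at 657, 433 and 269 CPM in TSO DSS. ENSOCUG00000015220, on chromosome 19, was at 32.8, 404 and 197 CPM in Veh DSS and at 199.6, 199.7 and 134 CPM in TSO DSS. In all 3 genes the lowest IEC level among the DSS rabbits was that of Veh DSS rabbit 1 and the highest that of Veh DSS rabbit 2, so that the groups overlapped.

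ENSOCUG00000016758, on chromosome 2, had the largest difference of the set between the Water groups in both cell types, 6.22 in IEC and 4.76 in LPMC. In IEC it was at 2.33, 1.96 and 1.14 CPM in Veh Water and at 109, 119 and 659 CPM in TSO Water. With DSS it was at 2.02, 1.69 and 1.33 CPM with vehicle and at 109, 5.33 and 81.5 CPM with ova. All IEC libraries without ova were thus between 1 and 3 CPM, and TSO DSS rabbit 2 was the nearest to them. The IEC difference of TSO DSS from Veh DSS was 3.96 (SE 1.13, limma adjusted p = 1.00). It was 3.26 without TSO DSS rabbit 1, 5.35 without rabbit 2, 3.30 without rabbit 3 and 5.46 with edgeR. In LPMC the gene was at 0.641, 3.12 and 5.02 CPM in Veh Water, 141, 88.6 and 62.2 CPM in TSO Water, 3.13, 1.52 and 3.19 CPM in Veh DSS, and 19.0, 10.6 and 1.36 CPM in TSO DSS. TSO DSS rabbit 3 was here below all Veh DSS rabbits, in the library with the fewest reads, although its IEC level was high. The LPMC difference was 1.22 (SE 0.78, limma adjusted p = 0.599), and it was 0.56 without TSO DSS rabbit 1, 2.12 without rabbit 3 and 2.03 with edgeR.

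In 2 genes the difference between the DSS groups had the opposite sign from that between the Water groups by more than 1 in both cell types. ENSOCUG00000001394, on chromosome 12, was at 924, 18.3 and 816 CPM in LPMC of Veh DSS and at 42.9, 17.6 and 13.6 CPM in TSO DSS, with a difference of -3.41 (SE 1.49, limma adjusted p = 0.545). IEC levels were 279, 25.7 and 1314 CPM in Veh DSS and 69.0, 24.2 and 2.96 CPM in TSO DSS, with a difference of -3.38 (SE 1.55, limma adjusted p = 1.00). Among the Water rabbits, Veh Water rabbit 2 stood apart, with 27.2 CPM in LPMC against 802 and 302 CPM in rabbits 1 and 3, and with 4.90 CPM in IEC against 101 and 165 CPM. The TSO Water levels were 3166, 1149 and 1221 CPM in LPMC and 590.2, 135 and 283 CPM in IEC. The gene was thus low in the same rabbits in both cell types, namely Veh Water rabbit 2, Veh DSS rabbit 2 and the 3 TSO DSS rabbits. DESeq2 called it lower in TSO DSS in LPMC, where its log2 fold change was -4.52. By limma, the LPMC difference was -5.20 without Veh DSS rabbit 2, and the IEC difference was -2.12 without Veh DSS rabbit 3.

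ENSOCUG00000012801, on chromosome 12, was the other gene. It was at 0, 25.5 and 0.554 CPM in LPMC of Veh DSS and at 0, 0.578 and 0 CPM in TSO DSS, with a difference of -1.60 (SE 1.25, limma adjusted p = 0.652) and of -5.08 with edgeR. Its IEC levels were 0.374, 58.4 and 3.70 CPM in Veh DSS and 0.578, 1.69 and 6.94 CPM in TSO DSS, with a difference of -1.04 (SE 1.43, limma adjusted p = 1.00), which was 0.49 without Veh DSS rabbit 2 and -2.47 with edgeR. In both cell types that rabbit was far above the others, and the groups overlapped with and without it.

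A single rabbit also placed a gene in the set. ENSOCUG00000024282, on chromosome 7, was singled out after its values had been seen. It was at 50.0, 0.606 and 51.0 CPM in IEC of Veh Water rabbits 1 to 3 and at 50.7, 0.267 and 51.6 CPM in LPMC, and rabbit 2 held 13 and 3 reads of it. In the other libraries it was between 42.5 and 83.0 CPM in IEC and between 50.7 and 96.7 CPM in LPMC. The difference of TSO Water from Veh Water was 1.82 in IEC and 2.08 in LPMC with rabbit 2, and 0.15 and 0.29 without it.

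Between LPMC and IEC, levels were compared in the 6 DSS rabbits, each of which gave both cell types, with the rabbit as a block. By limma, 2 of the 53 genes were higher in LPMC (5.36% of all 9987 tested genes) and 4 were lower (2.89% of all). Differences above 0 were found for 19 of the 53 (53.8% of all genes), and the median was -0.19. Both turned on single rabbits: without Veh DSS rabbit 2, 31 of the 53 were above 0 and the median was 0.06, and without Veh DSS rabbit 1, 9 were above 0 and the median was -0.50. ENSOCUG00000016462 was higher in LPMC by 1.32 (SE 0.23, limma adjusted p = 0.00841), and ENSOCUG00000013508 by 1.05 (SE 0.26, limma adjusted p = 0.0297). The LPMC levels of ENSOCUG00000016462 were above the IEC levels of the same rabbit in all 6 DSS rabbits. The call of ENSOCUG00000013508 was lost with scaling by library size only, where the difference was 1.02, and without TSO DSS rabbit 1 or 3 or Veh DSS rabbit 1 or 3 (0.82 to 1.06), whereas that of ENSOCUG00000016462 held with each rabbit left out.

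ENSOCUG00000022235, on chromosome 17, was lower in LPMC by the largest amount, with a difference of -1.89 (SE 0.50, limma adjusted p = 0.0370). It was at 1.01, 10.0 and 6.85 CPM in IEC of Veh DSS and at 16.4, 9.62 and 18.7 CPM in IEC of TSO DSS, while in LPMC it was at 0.323, 2.47 and 1.45 CPM and at 2.90, 3.98 and 0 CPM. ENSOCUG00000022477 differed by -1.53 (SE 0.40, limma adjusted p = 0.0355). The calls of both were lost without the filter on low values, and that of ENSOCUG00000022235 also with a pseudocount of 0.1 (-2.77). With single rabbits left out, that of ENSOCUG00000022235 was lost without TSO DSS rabbit 1 or 2 or Veh DSS rabbit 2 or 3 (-2.07 to -1.93), and that of ENSOCUG00000022477 without TSO DSS rabbit 1 or Veh DSS rabbit 2 or 3 (-1.64 to -1.44). Those of the other 2 genes lower in LPMC, ENSOCUG00000022954 on chromosome 4 (-1.16, SE 0.22, limma adjusted p = 0.0111) and ENSOCUG00000025638 on chromosome 7 (-1.10, SE 0.17, limma adjusted p = 0.00526), were lost without the rabbit block, and the last also without Veh DSS rabbit 3 (-0.99). The latter 2 are named because they complete the count.

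**Figure D5:**
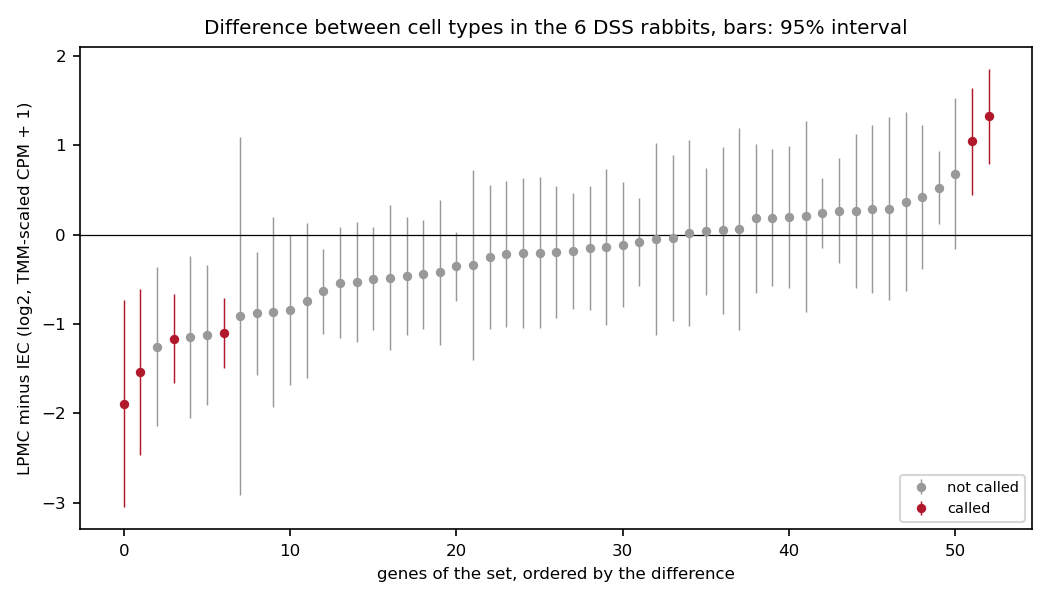
LPMC minus IEC in the 6 DSS rabbits for each of the 53 genes, ordered by the difference on the x axis, as log2 fold changes of TMM-scaled CPM with 95% intervals as bars. The 6 called genes are in red, 4 below -1 and 2 above 1, and 19 of the 53 lie above 0, a count that was 31 without Veh DSS rabbit 2 and 9 without Veh DSS rabbit 1.

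Whether the difference of TSO DSS from Veh DSS was itself larger in a cell type was tested as the interaction of treatment and cell type. By limma no gene was called (0.0% of 9987 in either direction), and none of the set was below 0.05 at the unadjusted p with an interaction beyond 1, beside 0.17% of all genes more positive and 3.37% more negative in LPMC. This count rested on single rabbits: it was 5 more negative without TSO DSS rabbit 2 (11.8% of all genes) and 8 without Veh DSS rabbit 2 (4.49% of all). The lowest unadjusted p of the set was 0.0619 (limma adjusted p = 0.877). The interaction, LPMC minus IEC, was above 0 for 7 of the 53 genes (50.6% of all genes), with a median of -0.43 beside 0.01 over all genes. Without Veh DSS rabbit 1 it was above 0 for 32 genes, with a median of 0.16, and without Veh DSS rabbit 2 for 3 genes, with a median of -0.95. A p above the threshold does not show that the differences were equal.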

How the data were processed

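Per the labels, poly-A RNA was sequenced as single-end reads, whereas the study's methods describe paired inserts. The submitters' processing notes name the build OryCun2.0 and FastQC. The aligner, the counting program and the gene models used for counting are not given in the sources used here, nor whether counting used strand, so that reads of overlapping and antisense genes cannot be told apart. In each of 6 tables the authors deposited a normalized signal per gene and library, scaled table by table. They also deposited log2 ratios, p-values and FDR values of their own comparisons, which were not used.

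Whole reads were recovered from the steps between low values in all 36 columns: 100% of the values below 400 reads were within 0.1 of a whole number. CPM was taken from the column sums. The set was built by its rule, and the members and lists were chosen with earlier results of these data known. The study's later annotation of the identifiers was not used here, and marker and pathway lists by symbol could not be applied. Tests used limma 3.58.1 (trend) in R 4.3.3 on log2(TMM-scaled CPM + 1), for genes with a mean of at least 1 CPM over the libraries fitted, with edgeR 4.0.16 and DESeq2 1.42.0 on the recovered reads as alternatives. On these reads, edgeR called 0 genes and DESeq2 called 38 higher and 198 lower for LPMC, TSO DSS against Veh DSS. For IEC, edgeR called 0 genes and DESeq2 26 higher and 2 lower. A call needed an adjusted p (Benjamini-Hochberg) under 0.05 and a log2 fold change beyond 1 in either direction. The fold changes understate the change of low genes. Scripts were tested on simulated data. Genes were named by the lowest p and the most negative difference of TSO DSS against Veh DSS, the highest level, the largest difference by the rule, the largest difference between the cell types, and nearness to the threshold. The cell types are paired by rabbit, and the deviations of paired libraries from the group means correlated between -0.08 and 0.44 across genes in the DSS rabbits. Alternatives were another pseudocount, filter or scaling, a fit of all 12 libraries of a cell type, blocks by replicate number, and each rabbit left out in turn. Chosen after seeing the data were these settings for the counts at the unadjusted p and for the counts without overlap.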

Additional observations from a re-analysis of the deposited data

How the results depend on the processing

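With 3 rabbits per group, counts of calls depended on the tool and on single rabbits. The set itself held 84 genes with a pseudocount of 0.1, 20 where IEC also had to be without overlap, 86 with room A rabbits only, and 34 (without TSO Water rabbit 1) to 80 (without TSO Water rabbit 2) with each rabbit left out in turn. For TSO DSS against Veh DSS in LPMC, 0 genes of the set were called at the adjusted p, against 2 with all 12 LPMC libraries in the fit and 7 with DESeq2, which also called 1 lower. At the unadjusted p, 9 were higher, against 10 and 12 in these fits. The fit of all 12 libraries includes the Water libraries that chose the genes, so that its counts within the set are not independent of the rule. Over the rabbits left out, 0 to 7 were called higher, the 7 without TSO DSS rabbit 2, where 95 genes were called higher in all. Without that rabbit 17 of the set did not overlap (11 to 17), as did 25.2% of all tested genes, and the LPMC median ranged from 0.00086 to 0.46. In IEC, 0 were called at the adjusted p, against 10 with DESeq2, and 15 were higher at the unadjusted p with limma and 15 with DESeq2. At the adjusted p, 0 to 1 were called with each rabbit left out, the 1 being without TSO DSS rabbit 2, where 4 genes were called higher in all, or without Veh DSS rabbit 3, where 1 was. Without Veh DSS rabbit 2, 25 were higher at the unadjusted p (12 to 25), beside 1.29% of all tested genes, and 33 did not overlap (14 to 33), beside 8.64% of all, and the IEC median ranged from -0.01 to 1.56. Scaling by library size only moved the median of all IEC genes from -0.02 to -0.13, and that of the set from 0.80 to 0.69. Between the cell types, 1 gene was higher in LPMC with scaling by library size only (4.64% of all genes) and 1 to 2 with each rabbit left out (3.21% to 6.41%). In LPMC 6 were lower with scaling by library size only (3.03% of all genes), 2 without the filter (2.09%), 2 without the rabbit block (2.82%) and 1 to 5 with each rabbit left out (2.40% to 3.39%). The sign turned for ENSOCUG00000012801 in IEC without Veh DSS rabbit 2, where the range with each rabbit left out was -2.20 to 0.49, and for ENSOCUG00000013891 in IEC without Veh DSS rabbit 2 or rabbit 3, where it was -1.62 to 0.87. The cause was not tested.

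Replicate numbers name different rabbits, and the deviations of DSS libraries with the same number correlated between -0.39 and 0.15. With the replicate block, 0 genes were called in LPMC and 0 in IEC, and the medians were 0.28 and 0.80.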
